A study of Mus musculus with 6 samples.

Results

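The genes described here encode the proteasome: its structural subunits, the activators and the inhibitor that bind it, and the chaperones that assemble it. Members were chosen by symbol, as every Psma, Psmb, Psmc, Psmd, Psme, Psmf or Psmg gene with a number, without the interferon-induced genes Psmb8, Psmb9, Psmb10, Psme1 and Psme2 and without pseudogenes. The rule found 43 of the 14254 genes in the table, and no measured value entered it. All 43 passed the filter on low counts (10 or more, after normalisation, in 3 or more libraries) and entered the test of 13997 genes. By role they comprised 7 subunits of the alpha ring, 7 of the beta ring, 6 ATPases and 3 other subunits of the base, 8 subunits of the lid, 2 activators and 1 inhibitor, 4 chaperones of the core and 3 of the base. The last 2, Psmc3ip and Psme2b, matched by their letters: Psmc3ip encodes a recombination factor that binds an ATPase subunit and belongs to no proteasome particle, and Psme2b is named as a copy of Psme2, so reads of that pair may have been split. The 2 other coding genes with such symbols, Psma8 and Psmb11, were not listed in the table. Both genes given as markers of the set, Psma1 of the core and Psmd1 of the cap, were counted in all 6 libraries, the lowest at a normalised count of 3329.

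The proteasome is the protease that degrades most short-lived and misfolded proteins of the cytosol and nucleus after they have been tagged with ubiquitin. Its barrel-shaped core is built of outer alpha rings, which gate the entrance, and inner beta rings, which carry the cutting sites. A cap made of a base and a lid recognises ubiquitin, removes it, and threads the unfolded protein into the core through a ring of ATPases. Since subunits act in fixed ratios, cells keep the expression of their genes close together, and when proteasome activity falls the transcription factor NFE2L1 raises many of them at once. Interferons exchange the cutting subunits for the induced forms, which favour peptides for antigen presentation, and tumour cells with high protein turnover are known for their reliance on the particle.

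The libraries came from mouse pancreatic ductal adenocarcinoma organoids of the line KPF_5.3G, grown in medium with gastrin, Noggin, R-spondin and the growth factors EGF and FGF-10. In 3 libraries the organoids carried a control hairpin (shCtrl, genotype labelled WT), and in 3 they carried the lentiviral hairpin shJag1_3 against Jag1 (genotype labelled Jag1 knockdown). Jag1 encodes a membrane ligand of Notch receptors, and the comparison asks what its loss does to a tumour-initiating state of these cells. Each group is 1 hairpin in 1 line, no treatment is labelled, and the alleles of the line, its passage and the age of its mouse are not given in the sources used here. The submitters call the replicates biological; their culture of origin is not given. Below, the 3 values of a group follow the replicate numbers 1, 2 and 3 of the titles.

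Gene reads per library ran from 22110664 to 35010147. Jag1 had counts of 412, 983 and 847 in the controls and 226, 321 and 557 in the knockdowns, a log2 difference of −1.03 (SE 0.45; limma adjusted p = 0.691). With the replicate number as a term in DESeq2 its adjusted p was 0.00628, so the hairpin's target was lower, with control 1 below knockdown 3. Libraries stood apart by their number before any comparison of hairpins: deviations from the group mean correlated at 0.68 between control 1 and knockdown 1 and between −0.45 and −0.63 for each of these with number 2 and 3 libraries of the other group. Deviations cancel out within a group, so the negative values follow on balance from the positive one. Mitochondrial genes took 0.595% and 0.555% of gene reads in control 1 and knockdown 1 and 1.02% to 2.03% in the other 4. ERCC spike-in RNAs, added synthetic transcripts, took 0.462% to 1.04% of all reads. All 8 ductal and epithelial markers were counted, of which limma and edgeR, with and without the replicate term, called 0 of 8. DESeq2 called 3 of 8, among them Krt19 and Epcam, higher in the knockdown with the term (4.57% of all genes) and 1 of 8 without it. In limma 6 of the 8 had a positive difference and 2 a negative one, the lowest at −0.22. On replicates 2 and 3 only, limma called 3 of 8 higher (6.04% of all genes). Of the fibroblast markers 6 of 8 were not listed, among them Col1a1 and Dcn, and Ptprc and Pecam1, which define immune and endothelial cells, were not listed either. Of the immune markers only Cd68, of macrophages, was listed, with counts of 98.6, 136 and 111 in the controls and 117, 988 and 400.4 in the knockdowns. Its log2 difference was 1.65 (limma adjusted p = 0.691), and it was called higher in DESeq2 with the replicate term (adjusted p = 0.00794) and in limma on replicates 2 and 3 only (adjusted p = 0.0304); its part in the results below was not tested.

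Member transcripts made up 0.811%, 0.501% and 0.522% of gene reads in the controls and 0.829%, 0.579% and 0.583% in the knockdowns. Per library the share was thus high in both libraries numbered 1 and lower in the other 4, and the groups overlapped. The means were 0.611% ± 0.173 in the controls and 0.664% ± 0.144 in the knockdowns (SD, n = 3 each), a ratio of 1.09, and the difference was smaller than the SD within a group. Within pairs of equal number the share was higher in the knockdown in all 3, as the count was for 22.3% of single genes. Without control 1 the ratio was 1.30, and without knockdown 1 it was 0.950. The median count of the 31 structural subunits was likewise highest in the number 1 libraries and higher in the knockdown of each pair, at 5488, 3649 and 3894 in the controls and 6088, 4383 and 4031 in the knockdowns.

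Levels were compared between members per length, as reads per kilobase of transcript scaled to the same total in each library, computed in the way of TPM over all genes, with the mean ± SD over all 6 libraries. Psmb4, a beta subunit without a cutting site, was highest at 709 ± 210.3, followed by the cutting subunit Psmb6 at 457 ± 109, the alpha subunit Psma7 at 446 ± 92.7, the cutting subunit Psmb5 at 402 ± 83.1 and the ubiquitin receptor Psmd4 at 383 ± 72.3. The neighbours after Psmb4 lay within 1 SD of each other. Among structural subunits the lowest were Psmd11 of the lid at 95.2 ± 19.3 and Psma2 at 104 ± 26.6, so the 31 spanned 7.45-fold. Within the alpha ring the span was 4.30-fold, from Psma2 to Psma7, and within the ATPases 2.35-fold, from Psmc6 at 116 ± 17.5 to Psmc1 at 274 ± 86.7. Gene models shape this order and these spans: with the length of all exons joined, Psmb4 stayed at rank 1, whereas Psma7 went from rank 3 to rank 14 and Psmc5 from rank 17 to rank 5. In the alpha ring Psma2 then stayed lowest, at 126, and Psma5 was highest, at 452. The transcript lengths used for Psma2 and Psma7 were 2911 and 914 bases.

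By this transcript length, members that assemble or regulate the particle had lower levels than the structural subunits, except Psme3. With the length of all exons joined, the separation did not hold for all chaperones. Psmd10 then stood at 108, Psmg1 at 78.4 and Psmg4 at 76.0, against 65.3 for the structural subunit Psmd11 and 76.4 for Psmd1. The other chaperones stayed below Psmd11. The levels below are by transcript length. The core chaperones Psmg1, Psmg2, Psmg3 and Psmg4, which pair and dock alpha subunits, had levels of 65.6 ± 11.3, 63.1 ± 8.92, 48.4 ± 6.19 and 49.4 ± 13.5. Of the base chaperones, which hold the ATPases before they join, Psmd10 stood at 72.6 ± 6.32, Psmd9 at 33.4 ± 8.85 and Psmd5 at 25.7 ± 4.0. An exon of Psmd9 shares 1849 bases with Gm26745, a gene on the opposite strand that was not listed. Psme3, the nuclear activator ring, reached 122 ± 35.8, in the range of the lower subunits. The large activator Psme4 had 38.6 ± 11.1, the inhibitor Psmf1 18.1 ± 3.44, and the symbol matches Psmc3ip and Psme2b 16.7 ± 7.41 and 14.2 ± 3.99.

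**Figure D1:**
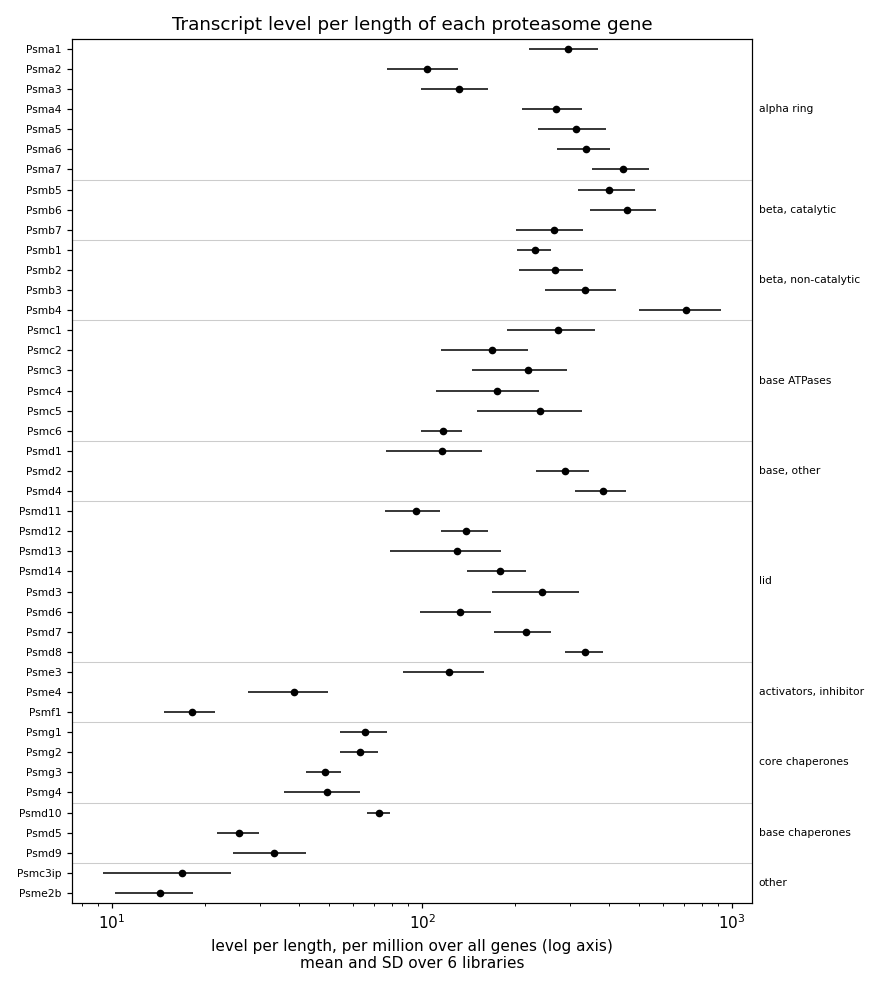
Level per length of each member in TPM units on a log axis, grouped by role; points are means and bars the SD over the 6 libraries. Psmb4 is highest at a mean of 709. With the transcript length used here, all chaperones lie below the lowest structural subunit by their means, which did not hold with all exons joined.

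Between knockdown and control, no member was called higher or lower. The smallest adjusted p over the 43 was 0.807 (limma, Benjamini-Hochberg over 13997 genes), 0 members had an unadjusted p under 0.05 (7.29% of all genes did), and limma called 0 genes of the whole table (0%). Once the replicate number entered as a term, limma called 2 genes (0.0143%) and no member. DESeq2 with that term called 640 genes higher (4.57%) and 361 lower (2.58%), again with 0 members among them. DESeq2 without the term called 101 genes higher and 73 lower, and edgeR 0, and neither called a member. With the term, 1 member, Psmd13 of the lid, had an unadjusted p under 0.05 in each of limma, edgeR and DESeq2, where 19.5%, 18.6% and 18.3% of all genes did; its adjusted p was 0.200, 0.225 and 0.175. The count of 1 in 43 is below those shares. None of the 43 had control and knockdown libraries that did not overlap, against 11.7% of all genes tested. In 38 of the 43, both number 1 libraries lay above all others (23.7% of all genes). With that order the groups must overlap, so for these members the comparison with 11.7% says nothing of the hairpin.

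Fitted log2 differences were small and mostly above 0. They ran from −0.40 for Psmg4 to 0.48 for Psme2b, with a median of 0.12 against 0.00271 over all genes tested and a median SE of 0.23. Of the 43, 37 were positive, against 50.3% of all genes; with libraries scaled to the spike-ins 13 were positive, and the medians of members and of all genes were −0.062 and −0.18. Relative to the median of all genes the members' median thus lay 0.12 higher under the authors' size factors and 0.11 higher under spike-in scaling. A change of scaling shifts all genes almost alike, so this gap could hardly change and its likeness shows nothing. With 1 library left out the gap ran from −0.014 (without knockdown 1) to 0.33 (without control 1). The members' median leaned on single libraries: it was 0.32 without control 1, 0.013 without control 2 and −0.0058 without knockdown 1, with 38, 26 and 19 positive members. By pair of equal numbers, the median was 0.076, 0.23 and 0.068, with 30, 36 and 28 members positive. In all 3 pairs, 16 members were higher in the knockdown (37.2%, against 22.3% of all genes) and 2, Psmg4 and the ATPase Psmc3, were lower (4.65%, against 19.7%).

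**Figure D2:**
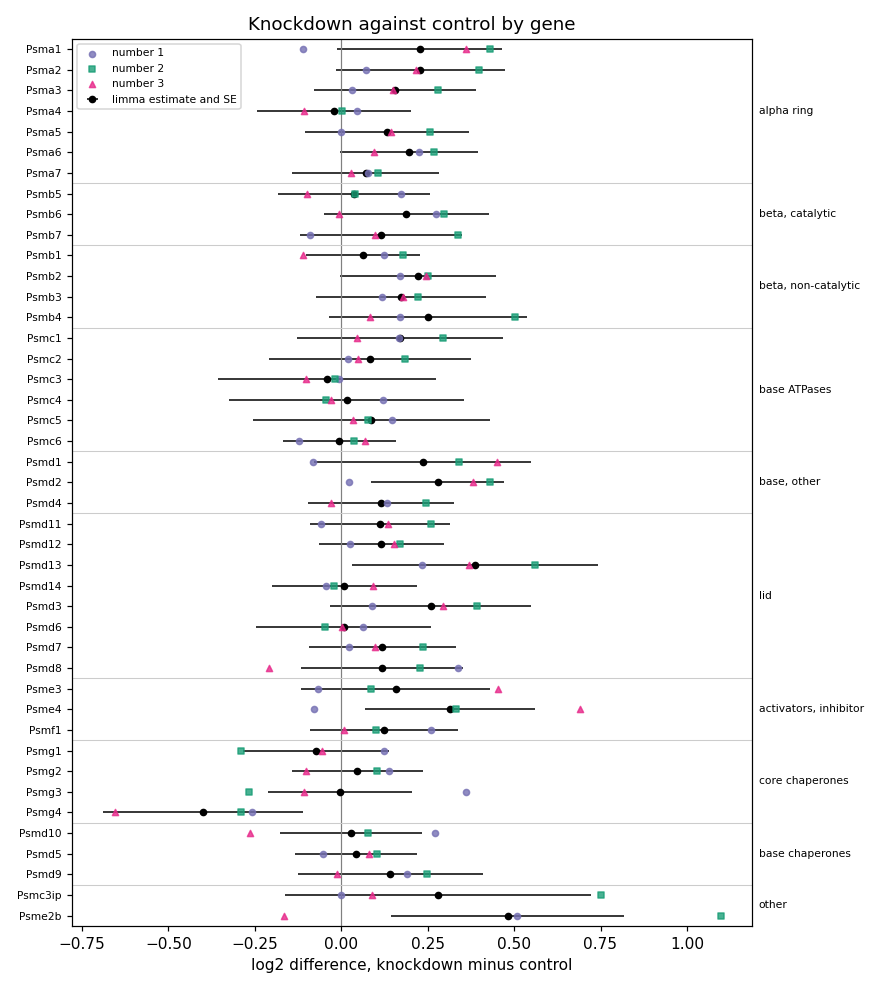
Knockdown minus control log2 difference of each member, with its SE from limma as the bar and the 3 within-pair differences as points, grouped by role. No member passed an adjusted p of 0.05, and 37 of 43 fitted values lie above 0.

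In the alpha ring, 0 of 7 subunits passed the test, and fitted differences lay between −0.021 for Psma4 and 0.23 for Psma2. Psma1 (ENSMUSG00000030751) had counts of 6036, 3579 and 3671 in the controls and 5588, 4823 and 4715 in the knockdowns. Both number 1 libraries were highest; among the other 4, knockdowns 2 and 3 lay above controls 2 and 3, and the fitted difference was 0.23 (SE 0.24, adjusted p = 0.880). Psma2 had counts of 4974, 3055 and 3189 in the controls and 5224, 4030.4 and 3707 in the knockdowns, in the same order. Psma4 differed in that order: its counts were 5111, 3649 and 3894 in the controls and 5274, 3654 and 3610.4 in the knockdowns, so that knockdown 3 was the lowest library. Psma7, the highest of the ring by transcript length but not with all exons joined, had counts of 6487, 4741 and 4726 in the controls and 6838, 5107 and 4822 in the knockdowns, a difference of 0.071 (SE 0.21).

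The cutting subunits of the beta ring, 3 in number, had differences under 1 SE. Psmb5, which carries the chymotrypsin-like site and is the main target of the drug bortezomib, had counts of 5568, 4352 and 4319 in the controls and 6283, 4470.3 and 4031 in the knockdowns. Knockdown 3 was its lowest library and the fitted difference was 0.038 (SE 0.22, adjusted p = 0.987). Psmb6, with the caspase-like site, had counts of 5554, 3982 and 4099.7 in the controls and 6715, 4897 and 4081 in the knockdowns and a difference of 0.19 (SE 0.24). For Psmb7, with the trypsin-like site, counts were 5263, 3181 and 3508 in the controls and 4947, 4017 and 3755 in the knockdowns and the difference was 0.12 (SE 0.23); its gene shares 253 exon bases with Nek6 on the opposite strand, and the kit does not mark strand. Of the 4 beta subunits without a mature cutting site, Psmb4 had the largest difference, 0.25 (SE 0.29, adjusted p = 0.885), and Psmb1 the smallest, 0.063 (SE 0.17). Psmb4 counts were 13954, 8043 and 8839.6 in the controls and 15690.2, 11397 and 9360.3 in the knockdowns.

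The ATPases of the base, which unfold the substrate, had differences between −0.042 and 0.17, and 0 of 6 passed. Psmc1 had counts of 7447, 4215 and 4795 in the controls and 8364, 5167 and 4946 in the knockdowns, a difference of 0.17 (SE 0.30). Psmc3 counts were 6674, 3919.7 and 3941 in the controls and 6637, 3873 and 3672 in the knockdowns, below the control in each pair by amounts far under the SE of 0.32; it shares 147 exon bases with Slc39a13 on the opposite strand. Psmc6 varied least of the ring, with counts of 3946, 3076 and 3449 in the controls and 3626, 3157 and 3616 in the knockdowns and a difference of −0.0056 (SE 0.16). Of the scaffold subunits of the base, Psmd1, with counts of 6719.9, 3464 and 3329 in the controls and 6346, 4383 and 4546 in the knockdowns, differed by 0.24 (SE 0.31, adjusted p = 0.905). Psmd1 shares 154 exon bases with Gm21972 on the same strand and 252 with Htr2b, which was not listed, on the opposite strand. Psmd2, which binds ubiquitin-like domains, had counts of 12946, 9121 and 9193 in the controls and 13162, 12302 and 11965 in the knockdowns and the smallest adjusted p of all members, 0.807, for a difference of 0.28 (SE 0.19). Knockdowns 2 and 3 were above controls 2 and 3 in both, and control 1 was above them. Psmd4, the ubiquitin receptor, differed by 0.12 (SE 0.21).

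Of the 8 lid subunits, Psmd13 had the largest difference and Psmd6 the smallest. Psmd13 (ENSMUSG00000025487; GRCm38 chr7:140881968-140898643, plus strand) had counts of 4540.2, 2293 and 2215 in the controls and 5335, 3382 and 2859 in the knockdowns. It was higher in the knockdown of every pair while the groups overlapped through control 1, and the difference was 0.39 (SE 0.36, adjusted p = 0.861). Its exons share 329 bases with Sirt3 on the opposite strand, so reads of that stretch could belong to either gene. Psmd6 counts were 3084, 2112 and 2121 in the controls and 3223, 2046 and 2126 in the knockdowns, a difference of 0.0068 (SE 0.25). Psmd14, the lid's ubiquitin-removing enzyme, had counts of 4513, 3242 and 3206 in the controls and 4377, 3192 and 3419 in the knockdowns and a difference of 0.0088. Psmd8, the subunit that completes lid assembly, had counts of 5131, 7733 and 7331 in the controls and 6479.6, 9062 and 6338 in the knockdowns; here knockdown 2 was highest and control 1 lowest, and the difference was 0.12 (SE 0.23).

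The activators and the inhibitor were positive in fitted difference without passing (1 of 3 positive under spike-in scaling). Psme4, a large nuclear activator linked to chromatin, had counts of 3804, 2349 and 2777 in the controls and 3604, 2955 and 4481 in the knockdowns, with knockdown 3 the highest library, and a difference of 0.31 (SE 0.24, adjusted p = 0.831). Psme3 had counts of 5577, 3221 and 3559 in the controls and 5320.1, 3417 and 4876 in the knockdowns. Psmf1 had counts of 999, 784 and 853 in the controls and 1197, 840.5 and 859 in the knockdowns, a difference of 0.12. Of the core chaperones, Psmg4 had the most negative difference of all members, −0.40 (SE 0.29, adjusted p = 0.817; 0.378 in DESeq2 with the replicate term). Its counts of 495, 390.5 and 360.0 in the controls and 413, 319 and 228 in the knockdowns were lower in the knockdown of each pair, and knockdown 1 lay above controls 2 and 3. Psmg1 differed by −0.074, Psmg2 by 0.047, and Psmg3 by −0.00444. The base chaperones lay at 0.028 (Psmd10), 0.043 (Psmd5) and 0.14 (Psmd9). Psme2b, at counts of 155, 96.5 and 148 in the controls and 221, 208 and 132 in the knockdowns, had the largest positive difference of all members, 0.48 (SE 0.34, adjusted p = 0.810), and Psmc3ip, which shares 385 exon bases with Mlx on the opposite strand, differed by 0.28 (SE 0.44).

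**Figure D3:**
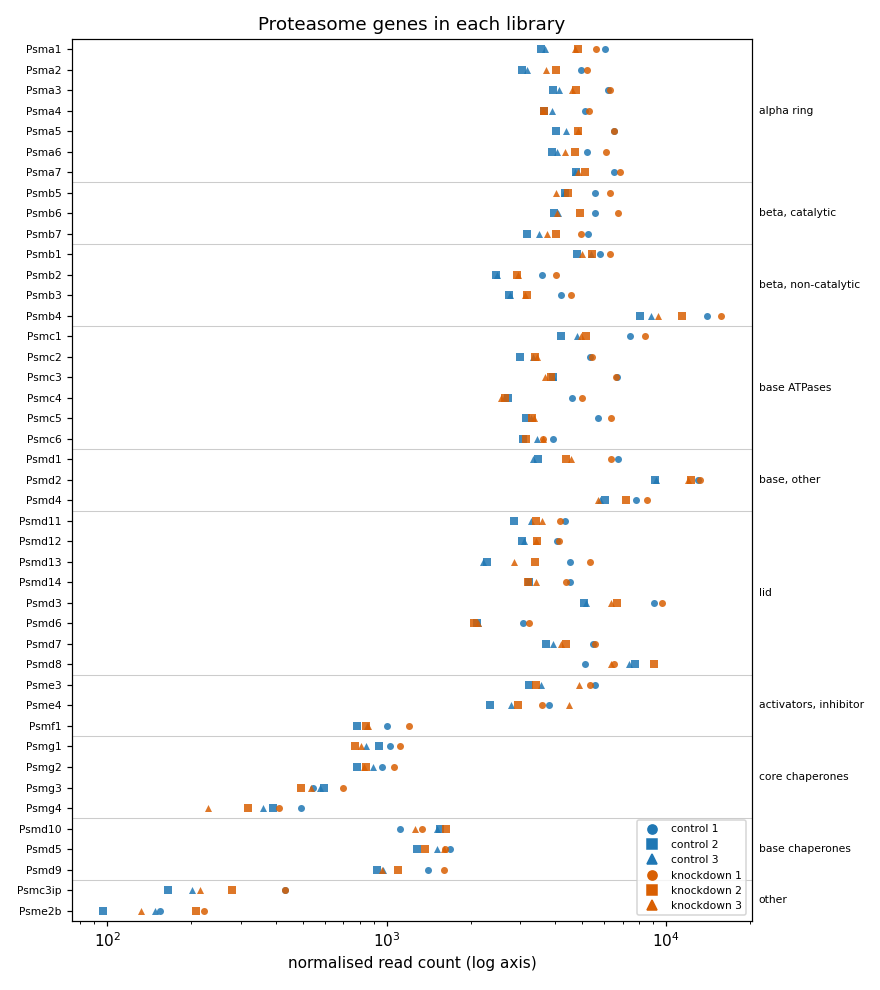
Normalised counts of each member in each library on a log axis, grouped by role, with controls in blue and knockdowns in orange and the replicate number as the shape of the point (circles for number 1). For 38 of 43 members both circles lie to the right of the other 4 points.

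Since they stood apart, both number 1 libraries were left out in alternative fits, in limma here and in DESeq2 further below. On replicates 2 and 3 only, 2 against 2, limma called 846 genes higher (6.04%) and 500 lower (3.57%), but 0 members in either direction. Unadjusted p-values under 0.05 were found for 28.1% of all genes and for 5 of 43 members, a smaller share: Psma1, Psmd1, Psmd2, Psmd3 and Psmd13, with adjusted values from 0.114 to 0.157. The median difference was then 0.15, with 34 of 43 positive. Without control 1 alone, 4 of the 5, all but Psmd3, had an unadjusted p under 0.05, against 18.8% of all genes, and the smallest adjusted p of a member was 0.215. Over all 6 libraries the SE of a member lay between 0.16 and 0.44.

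Member counts also differed along the replicate number. In 38 of 43 members both number 1 libraries lay above all other 4, against 23.7% of all genes tested, and in 0 members both lay below, against 23.3%. The median of the mean log2 difference between the number 1 libraries and the rest corresponded to 1.40-fold. No test was made of this contrast, as it was seen in the data and each number is a single pair of libraries. It depends on the scaling: with libraries scaled to total gene reads, 39 members lay above (29.4% of genes), and scaled to the spike-ins 12 did (13.2% of genes), with medians of 0.74 for members and 0.25 for all genes.

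Of the structural subunits, 30 of 31 lay above, at a median of 1.42-fold. The ATPases held the highest median of the roles with 3 or more members, 1.69-fold: Psmc5 was 1.83-fold, Psmc4 1.81-fold and Psmc6 1.14-fold the mean of the other 4 libraries. Psmc5 counts were 5710.0, 3147 and 3285 in the controls and 6328, 3321 and 3367 in the knockdowns, a picture in which the other 4 libraries differed little. Psmd13, at 1.86-fold, was highest in the lid, and the symbol match Psmc3ip, at 2.04-fold, highest of all. The 7 chaperones had a median of 1.21-fold, with 5 of 7 above. The 5 exceptions were Psmd8 at 0.763-fold, the base chaperone Psmd10 (gankyrin) at 0.823-fold, Psmg3 at 1.12-fold, Psme4 at 1.21-fold and Psme2b at 1.31-fold. Psmd10 had counts of 1111, 1549 and 1517 in the controls and 1342, 1634 and 1262 in the knockdowns.

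**Figure D4:**
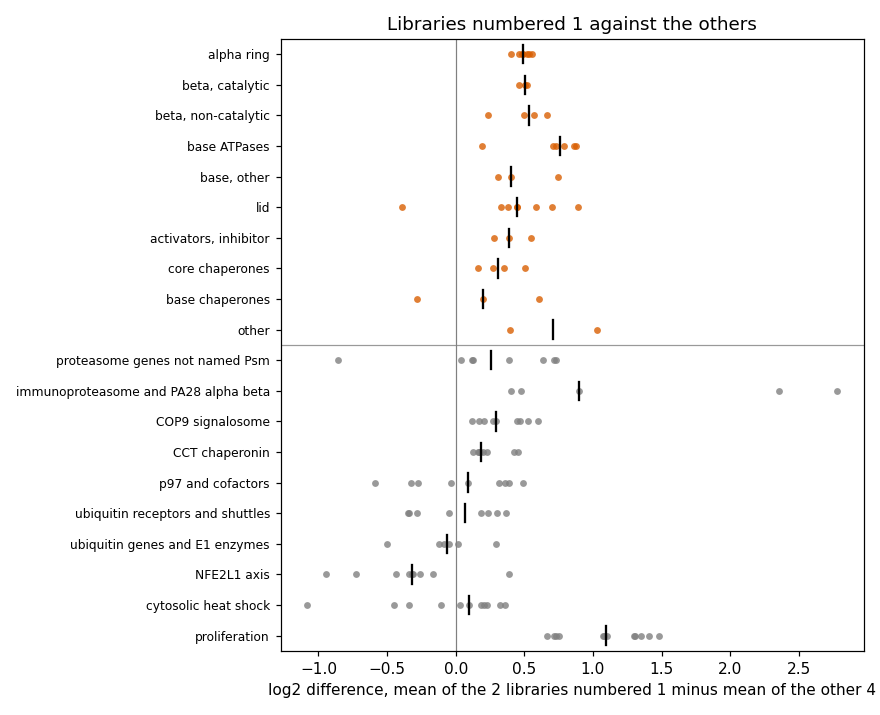
Mean log2 normalised count of both number 1 libraries minus the mean of the other 4, for every gene of the proteasome roles and of the other lists; points are genes and bars are medians. Members lie mostly above 0, with Psmd8 and Psmd10 below, and the NFE2L1 list has a median of −0.32.

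Each member was read as a log2 ratio to the median structural subunit of the same library, which removes any shift common to the particle. The SD of this log2 ratio over the 6 libraries had a median of 0.11 among structural subunits and was 0.052 to 0.14 in the alpha ring. These SDs were not set against those of other genes. In the ATPases the SD was 0.10 to 0.23. Psmc4 stood at −0.26 and −0.29 in the number 1 libraries and at −0.42 to −0.73 in the other 4. Psmc6 went the other way, at −0.48 and −0.75 against −0.16 to −0.47. Psmd8 had the largest SD, 0.51: its log2 ratios were −0.097, 1.08 and 0.91 in the controls and 0.090, 1.05 and 0.65 in the knockdowns. Relative to its partners Psmd8 was thus about level in both number 1 libraries and high in the other 4. Psmd10 followed with an SD of 0.45, Psmg4 with 0.34 and Psme4 with 0.32. For Psme4 the ratios were −0.53, −0.64 and −0.49 in the controls and −0.76, −0.57 and 0.15 in the knockdowns, and knockdown 3 stood apart from the other 5. Other structural subunits reached an SD of 0.24 at most.

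Other values moved with the replicate number. The proliferation list, 12 genes of DNA replication and mitosis such as Mki67, had 11 of 12 genes above in both number 1 libraries at a median of 2.13-fold, and its summed levels per length were 1976, 610 and 717 in the controls and 1916, 1220 and 1411 in the knockdowns. Mki67, a marker of cycling cells, had counts of 9926, 1776 and 2637 in the controls and 10887, 6301 and 6510.2 in the knockdowns. Between hairpins, all 12 had a positive difference (10 of 12 under spike-in scaling), and the median was 0.74. DESeq2 with the replicate term called 5 of 12 higher (4.57% of all genes) and 0 lower, while limma and edgeR, with and without the term, and DESeq2 without it called 0 of 12. On replicates 2 and 3 only, limma called 7 of 12 higher (6.04% of all genes) and 0 lower. The summed member levels, 11082, 6694 and 7051 against 10859, 7688 and 8135, placed the libraries in the same order as the proliferation list. Other summaries of the members did not give this order. By share of gene reads knockdown 1 (0.829%) lay above control 1 (0.811%). The structural median count did likewise (6088 against 5488), and it placed knockdown 2 (4383) above knockdown 3 (4031). The part that cycling cells or mitochondrial reads play in the members' values was not tested, and in these bulk libraries more cells of a state and more RNA per cell cannot be told apart.

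Genes that work with the proteasome under other names were read beside the members. Of the 10 on that list, 8 were in the table, 0 of 8 were called by limma or by DESeq2 with the replicate term, and 3 of 8 lay above in both number 1 libraries. Pomp, the factor that matures the new core, had counts of 4762, 2681 and 2885 in the controls and 5886, 4964 and 3475 in the knockdowns. It was higher in the knockdown of all pairs, with a difference of 0.49 (SE 0.29, adjusted p = 0.776; 0.138 in DESeq2 with the replicate term). Sem1, the smallest subunit of the lid, had a difference of 0.23 (SE 0.17). The ubiquitin receptor Adrm1 and the deubiquitinases Uchl5 and Usp14, which dock on the base, differed by 0.20, 0.19 and −0.048. Akirin2, which carries proteasomes into the nucleus, was 0.551-fold the other 4 libraries in the number 1 pair.

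The NFE2L1 list held the factor itself, its relative Nfe2l2, their partners Mafg and Mafk, and the enzymes that release NFE2L1 from the endoplasmic reticulum, 9 genes in all. None was called, the median difference between hairpins was 0.016, and only 1 of 9, Vcp, lay above in both number 1 libraries while 4 lay below. Nfe2l1 had counts of 5334, 9297 and 9454 in the controls and 5803, 8105 and 10069 in the knockdowns, lower in both number 1 libraries (0.605-fold under the authors' size factors). Between hairpins its difference was 0.00489 (SE 0.30). Ddi2, the protease that activates it, and Ngly1, the enzyme that edits its sugar sites, differed by −0.35 and 0.27, each under 2 SE. NFE2L1 is controlled by cleavage and degradation of the protein, which RNA levels do not show.

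Other complexes were read the same way. The COP9 signalosome, which has the architecture of the lid, had 8 of 9 genes above in both number 1 libraries at a median of 1.23-fold, and 0 of 9 called between hairpins, with a median of 0.10 (−0.080 under spike-in scaling). Its Cops2 had the most negative difference of that list, −0.45 (SE 0.16; adjusted p = 0.0808 in DESeq2 with the replicate term), and Cops5, its catalytic subunit, had 0.21. The CCT chaperonin, a folding ring, had 5 of 8 above at 1.14-fold, with a hairpin median of −0.081. Among the lists for p97 (Vcp) with its cofactors, and for ubiquitin shuttles, 4 of 9 and 2 of 8 lay above, with hairpin medians of 0.00358 and 0.018. No difference between these lists and the members was tested.

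Of the 5 interferon-induced genes left out of the members by the rule, the cutting subunits Psmb8, Psmb9 and Psmb10 were lower than those they replace. Psmb8, which takes the place of Psmb5, had counts of 283, 17.2 and 31.1 in the controls and 176, 56.5 and 32.9 in the knockdowns, and Psmb9, which takes that of Psmb6, 181, 9.19 and 31.1 in the controls and 111, 75.0 and 23.7 in the knockdowns. Per length, Psmb8 was 2.80%, 0.219% and 0.398% of Psmb5 in the controls and 1.55%, 0.698% and 0.450% in the knockdowns. Psmb9 was 1.93%, 0.136% and 0.448% of Psmb6 in the controls and 0.979%, 0.903% and 0.343% in the knockdowns. Both were thus highest in control 1 and then in knockdown 1, with knockdown 2 close behind for Psmb9, and control 2 rested on 15 and 8 reads. Psmb10 was closer to its counterpart Psmb7, at 22.9%, 18.8% and 22.0% in the controls and 30.5%, 23.6% and 16.7% in the knockdowns. Between hairpins, Psmb8 differed by 0.35 (SE 1.11) and Psmb9 by 0.61 (SE 1.09), and Psmb10 by 0.23 (SE 0.39). For Psmb8 and Psmb9 the sign turned in edgeR (−0.34 and −0.10) and DESeq2 (−0.32 and −0.082) without the replicate term, and the mean counts were 110.3 and 73.9 in the controls and 88.6 and 70.0 in the knockdowns. Psme1 and Psme2, the interferon-induced activator ring beside the nuclear Psme3, differed by −0.053 (SE 0.25) and 0.32 (SE 0.25). The highest mean level per length of the 5 genes was 243, that of an activator subunit, against 122 for Psme3. None of the 5 was called, by limma or by DESeq2 with the replicate term, and the groups overlapped for all 5.

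**Figure D5:**
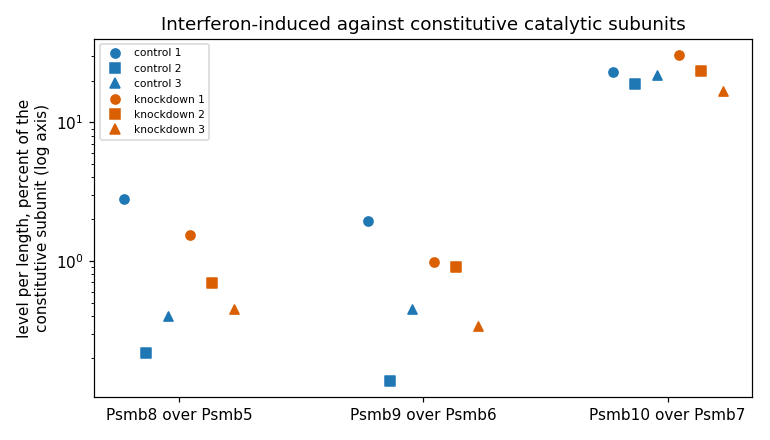
Induced subunit as a percent of the constitutive subunit it replaces, per length and on a log axis, for the pairs Psmb8 and Psmb5, Psmb9 and Psmb6, and Psmb10 and Psmb7 in each library. Psmb10 lies at 16.7% to 30.5% of Psmb7 in all 6 libraries, and Psmb8 and Psmb9 at 2.80% or less.

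Since most members were high in the same libraries, their promoters were read for shared letters. RefSeq windows of 250 bases before to 50 after a start site (GRCm38.p6) were at hand for 36 of 43 members, and 3 motifs were searched on both strands, none of which contains another. The ETS core CCGGAAGT, read by ETS-family factors such as GABPA, occurred in 9 of 36 members (25.0%), against 9.32% of the 10169 tested genes with a window. The antioxidant response core TGACNNNGC, read by NFE2L1 and NFE2L2 with small Maf proteins, occurred in 6 of 36 (16.7%), against 16.9%, and the NF-Y box CCAAT in 13 of 36 (36.1%), against 43.1%. Median GC content was 57.8% in the members' windows and 60.7% in those of all tested genes. The median ratio of observed to expected CG pairs went the other way, at 0.794 and 0.748, and the ETS core contains CG. No test was made of these shares, and a match is a string of letters, not a bound site. The ETS matches are shown with their neighbouring bases, in the direction of the gene and with the core in capitals, because this was the motif with a share above that of all tested genes:
Psma6: tagccataACTTCCGGgagggggc
Psmc1: gtggatgcACTTCCGGcggtggcg
Psmc2, first window: cagtgagcACTTCCGGgatggggc
Psmc2, second window: gcggagctACTTCCGGtggggaag
Psmd6: agacgcgaCCGGAAGTcagactgg
Psmd12: agcgggcgACTTCCGGtgcgagtg
Psmd13: ccgcggtgCCGGAAGTgagcgagc
Psme3: gtgacgcaACTTCCGGcgtgagcg
Psme4: gccccgccCCGGAAGTgacttgag
Psmg3: gacaggaaCCGGAAGTtctcgccg

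The coordinates given are those of the stretches shown, and the start is the RefSeq start site of the window. It can differ from the GENCODE gene bounds: the stretches of Psmd13, Psmc1 and Psmd12 lie inside those genes in GENCODE, whose models begin further upstream. The same holds for Psma6 and for the second window of Psmc2, which lie deeper in the gene. The Psma6 stretch is at chr12:55398833-55398856, in a gene that begins at 55384222. The second Psmc2 stretch is at chr5:21786714-21786737, in a gene that begins at 21785283. All 10 cores begin between 85 bases before and 16 after the RefSeq start site, and ACTTCCGG is the same core read on the other strand. The match begins 6 bases before the RefSeq start of Psmd13 (chr7:140882380-140882403, plus strand), 45 before that of Psmd6 (chr14:14120975-14120998, minus strand), 53 before that of Psme4 (chr11:30771714-30771737, plus strand) and 29 before that of Psmc1 (chr12:100110165-100110188, plus strand). Holders of the core had different values by library: Psmd13 and Psmc1 were among the highest in the number 1 libraries, at 1.86-fold and 1.66-fold, and Psme4 and Psmg3 were among the exceptions.

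The antioxidant response core is shown for the cutting subunits Psmb5 and Psmb6, whose starts it adjoins, since members of this kind are textbook targets of NFE2L1. In Psmb5 it begins 47 bases before the RefSeq start (chr14:54618026-54618050, minus strand) and in Psmb6 9 bases before (chr11:70525340-70525364, plus strand):
Psmb5: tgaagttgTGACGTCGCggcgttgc
Psmb6: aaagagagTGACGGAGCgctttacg

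Psmd12, a lid subunit, and Psme4 were the members with both of these motifs. The 250 bases before the RefSeq start of Psmd12 (chr11:107479278-107479527, plus strand) are shown with both in capitals, the antioxidant response core read on the opposite strand 247 bases before the start and the ETS core 18 bases before it:
Psmd12: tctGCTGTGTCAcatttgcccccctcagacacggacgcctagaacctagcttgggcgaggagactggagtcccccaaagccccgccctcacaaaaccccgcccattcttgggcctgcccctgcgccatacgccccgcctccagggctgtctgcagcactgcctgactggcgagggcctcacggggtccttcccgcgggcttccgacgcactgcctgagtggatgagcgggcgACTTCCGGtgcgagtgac

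Psmd12 had counts of 4053, 3056 and 3088 in the controls and 4128, 3441 and 3430.1 in the knockdowns, with a difference between hairpins of 0.12 (SE 0.18) and a number 1 difference of 1.26-fold, against lid medians of 0.12 and 1.36-fold.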

How the data were processed

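RNA from 3 control and 3 Jag1-knockdown organoid samples was sequenced from TruSeq libraries, per the labels' protocols. The submitters' processing notes name Trimmomatic, STAR 2.5.2b, DESeq2 1.32.0 and GRCm38; counting tool and annotation are not given in the sources used here. The deposited signal per gene is a normalised count: the authors divided counts by 1 size factor per library, and 100% of values were whole multiples of 1 read within 0.001, so whole reads could be recovered for the count tests. All 6 deposited tables were identical, and 5 were left out as copies. Symbols, positions and lengths came from GENCODE M21 for 14219 of 14254 genes. Lengths are those of the principal transcript.

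The test was limma 3.58.1 (R 4.3.3) on log2 of the normalised count plus 1, for 13997 genes with at least 10 in at least 3 samples (257 left out), Benjamini-Hochberg adjusted, threshold 0.05, all 6 samples, no covariate; differences are knockdown minus control on that scale. Alternatives were a replicate term, edgeR 4.0.16, DESeq2 1.42.0, other filters, pseudocounts and scalings, and libraries left out. The fits were tested on simulated data. Replicate numbers were treated as pairs, since deviations of same-numbered libraries correlated at 0.68, 0.57 and 0.44. Those of control 3 with knockdown 2 and control 2 with knockdown 3 also correlated, at 0.385 and 0.365. As deviations cancel out within a group and the number 1 libraries stood apart, positive values among numbers 2 and 3 follow in part. They are thus weak grounds for pairing 2 with 2 and 3 with 3, and what a number stands for is not labelled. P-values measure the spread between these samples. Genes named were Jag1, Psma1, Psmd1, in each role the members with the largest and smallest difference and the highest and lowest level, the cutting subunits with their induced counterparts, Psmc3ip, and up to 2 genes of each other list; further names were added after values were seen. Members and lists were chosen with earlier results of these data known.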

Additional observations from a re-analysis of the deposited data

How the results depend on the processing

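No member was called in any of 22 settings, and with the replicate block (pairs by number) 0 members were called and their median log2 difference was 0.12, as without it; the block changed no member's call. The median difference turned to −0.062 under spike-in scaling, which moved the median of all genes to −0.18. With 1 library left out it ran from −0.0058 (without knockdown 1) to 0.32 (without control 1). The knockdown-to-control ratio of member read shares then ran from 0.950 (without knockdown 1) to 1.30 (without control 1). The count of members above in both number 1 libraries was 12 under spike-in scaling. Calls over all genes numbered 0 in limma without the replicate term, 77 higher and 39 lower under spike-in scaling, and 210 higher and 84 lower without control 1. Without pair 1, a fit chosen after seeing the data, DESeq2 with the block gave 1250 higher and 870 lower genes and 0 members. The cause was not tested.

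Of 540 alternative values for 30 named members, 61 changed sign and none was called. With spike-in scaling these were Psma7 −0.11, Psmb1 −0.12, Psmb5 −0.14, Psmb7 −0.066, Psmc1 −0.012, Psmd10 −0.15, Psmd11 −0.069, Psmd4 −0.065, Psmd5 −0.14, Psmd6 −0.17, Psmd8 −0.062, Psmd9 −0.038, Psme3 −0.023, Psmf1 −0.057 and Psmg2 −0.13. On replicates 2 and 3 only they were Psmb5 −0.030, Psmc6 0.053, Psmd10 −0.094 and Psmd6 −0.021. With total scaling it was Psmd6 −0.0055, and without the replicate term Psmg3 was 0.013 in DESeq2 and 0.0078 in edgeR. With 1 library left out the ranges were Psma4 −0.20 to 0.13, Psma7 −0.084 to 0.22, Psmb1 −0.030 to 0.14, Psmb5 −0.15 to 0.17, Psmb6 −0.0071 to 0.35, Psmb7 −0.029 to 0.33, Psmc1 −0.073 to 0.41, Psmc3 −0.31 to 0.21, Psmc6 −0.093 to 0.087, Psmd10 −0.13 to 0.11, Psmd11 −0.022 to 0.28, Psmd4 −0.022 to 0.27, Psmd5 −0.062 to 0.13, Psmd6 −0.20 to 0.19, Psmd8 −0.066 to 0.23, Psmd9 −0.071 to 0.33, Psmf1 −0.042 to 0.22, Psmg1 −0.24 to 0.028, Psmg2 −0.067 to 0.11 and Psmg3 −0.15 to 0.099. The induced subunits Psmb8 and Psmb9 rest on as few as 15 and 8 reads.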

Other observations

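Cytosolic heat shock genes, which respond to unfolded protein and often rise when proteasomes are blocked, were fitted as a list of 11. Limma and DESeq2 with the replicate term called 0 of 11 in either direction, and limma on replicates 2 and 3 only called 1, Hspa1a, higher; the median difference was 0.21 with 7 of 11 positive, and 0.026 with 6 of 11 positive under spike-in scaling. In all 3 pairs 6 of 11 were higher (22.3% of all genes) and 4 of 11 lower (19.7%). The list's summed level per length was 6488, 6418 and 6410.0 in the controls and 5619, 5139 and 5371 in the knockdowns, lower in each knockdown. Hspa1a, an inducible chaperone whose reads may be split with its near copy Hspa1b, had counts of 229, 203 and 258 in the controls and 286, 476 and 439 in the knockdowns and the largest difference, 0.77 (SE 0.28, limma adjusted p = 0.646; 0.0737 in DESeq2 with the replicate term). Groups did not overlap for 3 of the 11 genes higher in the knockdown, Hspa1a among them, against 6.29% of all genes. The same held for 2 of the 11 lower in the knockdown, against 5.44%. Bag3, a cochaperone that steers proteins to autophagy, differed by 0.53 (SE 0.22), with counts of 1562, 1135 and 987 in the controls and 1619, 1993 and 1624 in the knockdowns. The abundant Hsp90ab1 lay lower, at −0.42 (SE 0.21).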
